A study of Mus musculus with 6 samples.

Results

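The immunoglobulin heavy chain (IgH), kappa (Igk) and lambda (Igl) light chain loci were described by 175 of the 55681 probes on a mouse oligonucleotide array. A probe was a member when its mm9 position lay in chr12:114400000-117300000, chr6:67400000-70750000 or chr16:19000000-19270000 and its description held the words immunoglobulin, antibody or Ig. Of the members, 93 lie at IgH, 76 at Igk and 6 at Igl. By the wording of the descriptions 16 probes read constant regions, 115 read variable regions and 44 name neither. RNA came from freshly sorted LSK cells. This fraction is defined by absence of lineage markers and presence of Sca-1 and c-Kit, and it contains the blood-forming stem cells together with early multipotent progenitors. Wild-type mice gave samples 1, 3 and 5, and NIKaly/aly mice gave samples 2, 4 and 6. The protein kinase NIK (gene Map3k14) drives the alternative branch of the NF-kB pathway. The aly allele carries a germline point mutation that disrupts the function of NIK, in the LSK cells as in every other cell of the mouse. The labels give no strain, age or pooling and do not say that the samples are separate animals, so each p-value speaks of the spread among these 6 samples, which may be technical.

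An antibody is built from paired heavy and light chains, each with a variable region that binds antigen and a constant region. In developing B cells the recombinase joins single variable, diversity and joining segments of the heavy chain locus, and later variable and joining segments of a light chain locus, while unrearranged segments and the mu constant gene can also be transcribed as germline RNA in earlier progenitors. The first heavy chains use the mu and delta constant genes, and activated B cells switch to the gamma, epsilon or alpha genes that lie further along the same locus. Plasma cells then transcribe the rearranged genes at a very high rate. Mice homozygous for aly lack lymph nodes and Peyer's patches and are known for low serum IgG and IgA.

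Array probes read short stretches of these segments, and many segments resemble each other. The following 60-base probes are shown, as the array files give them and 5′ to 3′, because the variable-region results turn on them. U30243 and U41438, 2 kappa probes lower in NIKaly/aly, lie at chr6:68071630-68071689 and chr6:68221019-68221078 on the plus strand, and no letter is marked in them. XM_357633 (chr6:69850418-69850477, minus strand) read higher in NIKaly/aly and AB663493 (chr6:70321926-70321985, plus strand) had nearly equal means. Capitals in them mark the pattern TANTANTGN, which covers the tyrosine-tyrosine-cysteine codons near the end of most variable segments. With any base at each N it also matches other codons, so counts of it are of the pattern only. AF296427 (chr12:116745936-116745995) and probe 1 of AF296437 (chr12:117158613-117158672), both on the minus strand, are IgH probes lower in NIKaly/aly, with no letter marked.
U30243: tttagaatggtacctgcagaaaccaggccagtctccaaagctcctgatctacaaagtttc
U41438: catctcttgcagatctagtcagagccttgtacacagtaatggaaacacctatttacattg
XM_357633: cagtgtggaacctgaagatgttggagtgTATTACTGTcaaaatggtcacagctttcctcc
AB663493: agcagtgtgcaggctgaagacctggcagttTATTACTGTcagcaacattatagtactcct
AF296427: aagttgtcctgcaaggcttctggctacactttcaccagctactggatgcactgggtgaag
AF296437, probe 1: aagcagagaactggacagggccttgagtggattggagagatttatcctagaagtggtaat

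The pattern was found on either strand in 30 of the 115 variable-region probes (26.1%) and in none of the 16 constant-region probes, against 1295 of all 55681 probes (2.33%). No other pattern was searched. Aligned without gaps over at least 40 bases, 39 of 15225 member pairs were at least 90% identical, 22 of them within IgH, 16 within Igk, 1 within Igl and 0 between loci. These pairs involve 53 members, which need not be independent readings of separate segments. In 10 of the pairs, 1 probe was well above background on 3 or more arrays and the other on 0 or 1. The 3 pairs below show how alike segments can be. Capitals mark the bases that differ within the aligned stretch. HQ446714 (chr6:67967417-67967476) and S74547 (chr6:68253070-68253129) share 39 of 43 aligned bases, U19317 (chr6:69349806-69349865) and U18569 (chr6:69494355-69494414) share 54 of 58, and AF045501 (chr12:117100209-117100268) and AF303844 (chr12:116432036-116432095) share 39 of 41.
HQ446714: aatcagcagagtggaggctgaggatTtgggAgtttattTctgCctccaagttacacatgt
S74547: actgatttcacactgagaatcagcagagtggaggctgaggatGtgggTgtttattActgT
U19317: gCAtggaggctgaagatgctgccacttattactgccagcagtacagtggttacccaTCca
U18569: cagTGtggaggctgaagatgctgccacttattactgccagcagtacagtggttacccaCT
AF045501: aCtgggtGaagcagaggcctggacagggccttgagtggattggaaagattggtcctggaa
AF303844: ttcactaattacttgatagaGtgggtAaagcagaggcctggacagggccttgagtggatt

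Signal well above background, the scanner software's flag, was the first measure of these loci. Above background, wherever it is said of a probe, refers to this flag. In wild type 1, 3 and 5 it was set for 83, 74 and 60 of the 175 members. In NIKaly/aly 2, 4 and 6 it was set for 67, 65 and 20. As shares of the members these are 47.4%, 42.3% and 34.3% in wild type against 38.3%, 37.1% and 11.4% in NIKaly/aly. Over all 55681 probes the shares were 31.8%, 44.5% and 36.8% in wild type against 35.9%, 42.6% and 32.5% in NIKaly/aly. NIKaly/aly 6 showed the widest gap, with far fewer members above background than all probes on its own array, and wild type 1 the widest gap in the other direction. On the other 4 arrays the members and all probes came closer to each other. For the kappa probes the count ran from 38 of 76 in wild type 1 to 5 of 76 in NIKaly/aly 6. At IgH the counts were 39, 44 and 31 of 93 in wild type against 33, 39 and 10 in NIKaly/aly. At least 5 of the 6 lambda probes were well above background on every array.

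Over the 6 arrays, 56 members were never well above background, 35 were on 1 array, 23 on 2 and 61 on 3 or more. The 35 seen once fell to wild type 1, 3 and 5 in 8, 10 and 3 cases, and to NIKaly/aly 2, 4 and 6 in 6, 8 and 0 cases. Members seen on at least 1 wild-type array and no NIKaly/aly array numbered 32, and 4.17% of all probes did so. Members seen on at least 1 NIKaly/aly array and no wild-type array numbered 15, against 2.32% of all probes. Well above background on all wild-type arrays and no NIKaly/aly array were 2 members, the kappa probe U41438 and probe 2 of the heavy constant gamma 1 gene, against 10 of all 55681 probes (0.0180%). The reverse held for 1 member, the kappa probe XM_357633, against 5 of all probes (0.00898%).

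Levels are given as log2 of the processed signal minus the log2 of the array's 75th percentile, and differences as NIKaly/aly minus wild type on that scale. The 61 members seen on 3 or more arrays, of either genotype, entered limma's test with all 21217 tested probes. Of these 61, 32 are IgH, 24 Igk and 5 Igl probes. The filter let 3 of them, U41438, gamma 1 probe 2 and XM_357633, through on the arrays of the genotype where they are high, so that they had to differ. Counts are therefore also given for the 58 members seen in both genotypes. After Benjamini-Hochberg adjustment limma called 0 members and 0.00% of all tested probes at 0.05. At an unadjusted p under 0.05 there were 12 members, 11 lower and 1 higher in NIKaly/aly, against 1.28% of all probes. Among the 58 seen in both genotypes there were 9, all lower, against 1.23% of all probes so seen. Of the 61 members, 11 were at least 2-fold lower with such a p, against 0.561% of all probes, and 1 was at least 2-fold higher, against 0.325%. Of the 58, 9 were lower by this rule (0.533%) and 0 higher (0.302%). The genotypes did not overlap for 10 members lower in NIKaly/aly, against 2.01% of all probes, and for 1 higher, against 2.56%. Of the 58 these were 8 lower (1.98%) and 0 higher (2.55%).

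In sign alone, 56 of the 61 were lower in NIKaly/aly, where 51.5% of all tested probes were, and 5 were higher, where 48.5% were. Of the 58 seen in both genotypes 54 were lower and 4 higher, with a median of -0.88. A difference of at least 2-fold, whatever its p, was seen downward for 25 members (1.42% of all probes) and upward for 2 (0.778%). The median difference was -0.89, and -0.0089 over all tested probes. At IgH 32 of 32 were lower with a median of -1.05, at Igk 19 of 24 with -0.71, and at Igl 5 of 5 with -0.44. The 16 members well above background on all arrays were 16 of 16 lower, with a median of -0.88. These signs share their samples: 51 of the 61 were highest in wild type 1. Per sample, the median level of the 61 was 1.35, -1.15 and 0.073 in wild type 1, 3 and 5 against -0.49, -1.10 and -2.69 in NIKaly/aly 2, 4 and 6, so that the genotypes overlapped. Without wild type 1, 38 of 61 were lower with a median of -0.23. Without wild type 3 the median was -1.37 and limma called 1 member, AK007918. The count at least 2-fold lower with an unadjusted p under 0.05 came to 26 when NIKaly/aly 2 was left out and to 20 when wild type 3 was.

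Setting consecutive sample numbers (1 with 2, 3 with 4, 5 with 6) as a block in limma gave 1 member with an adjusted p under 0.05, U30243, among 2 such probes in all (0.00943%). An unadjusted p under 0.05 was then reached by 29 members lower in NIKaly/aly, against 3.94% of all probes, and by 2 higher, against 3.10%. Lower in NIKaly/aly in each of the 3 such pairs were 33 members, against 15.7% of all probes, and 3 were higher in each, against 13.7%. The labels do not tie these numbers to a litter or a day, and the block was prompted by earlier results of these data.

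The widest differences lay at the far end of the heavy constant cluster. Of the 13 IgH probes placed at or beyond the mu probe, 9 were tested, and 9 were lower in NIKaly/aly with a median difference of -4.25. The differences of mu and delta were -0.46 and -0.70, while the gamma probes and the probes beyond the epsilon gene differed by -2.65 to -6.07. The mu probe (chr12:114659630-114659689) reads the constant gene of IgM, the first heavy chain made. It was 4.50, 3.64 and 3.14 in wild type against 3.70, 3.15 and 3.05 in NIKaly/aly, a difference of -0.46 (SE 0.40, unadjusted p = 0.28 in limma). The genotypes overlapped for mu within a narrow range. The delta probe AK134885 (chr12:114654277-114654336), which reads the constant region of IgD, was 2.80, 0.083 and 0.61 in wild type against 1.01, -0.39 and 0.77 in NIKaly/aly. Its genotypes overlapped too, with a difference of -0.70 (SE 0.71) that was 0.11 without wild type 1.

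The gamma genes encode the constant regions of IgG, made after class switching. AK007918, described as serum IgG2a (chr12:114525600-114525659), was 4.98, -0.13 and 3.42 in wild type against -3.53, -2.66 and -3.75 in NIKaly/aly. Every wild-type value lay above every NIKaly/aly value, and NIKaly/aly 4 was the only array of its genotype well above background. The difference was -6.07 (SE 1.12, unadjusted p = 0.00063 in limma), and it ran from -4.96 to -7.51 when single samples were left out. With normexp background correction, an alternative to the reported processing, it was -3.38. BC019489, a second IgG2a entry (chr12:114525496-114525555), was 5.01, 1.49 and 4.09 in wild type against -2.06, 1.39 and -3.82 in NIKaly/aly. Here NIKaly/aly 4 lay just below wild type 3, and only NIKaly/aly 6 was not well above background. Its difference was -5.03 (SE 1.33, unadjusted p = 0.0053 in limma). The gamma polypeptide probe (chr12:114544738-114544797) was 3.55, 1.09 and 3.08 in wild type against -2.81, 0.87 and -3.48 in NIKaly/aly, a difference of -4.38 (SE 1.12). Here too NIKaly/aly 4 lay just below wild type 3, while NIKaly/aly 2 and 6 were both not well above background. Gamma constant genes resemble each other, so which of them each probe reads is uncertain.

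Probe 2 of the heavy constant gamma 1 gene (chr12:114568594-114568653) was 0.69, -3.43 and -0.70 in wild type against -4.60, -4.88 and -3.64 in NIKaly/aly. It was well above background on every wild-type array and no NIKaly/aly array, which bounds the difference at least 2.57-fold lower in NIKaly/aly. That bound sets the wild-type mean against, on each NIKaly/aly array, the higher of the probe's own signal and the lowest signal well above background. Probe 1 of the same gene was above background in wild type 1 and 5 only, so no such bound is given for it. The epsilon probe, for the constant region of IgE, was above background in wild type 1 alone, and the gamma 2C and gamma 3 probes on no array.

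Beyond the epsilon probe lie 3 tested members, where the RefSeq gene table (GRCm38.p6, used for the order of genes only) places Igha, the constant gene of IgA, next to Ighe. Their descriptions name a J558-family heavy chain or no region at all. Probe 1 there (chr12:114496985-114497044) was 7.16, 5.62 and 6.62 in wild type against 6.43, 3.31 and -3.85 in NIKaly/aly. NIKaly/aly 2 lay within the wild-type range, and NIKaly/aly 6 was not well above background. The difference of -4.50 (SE 2.18, unadjusted p = 0.073 in limma) was -1.59 without NIKaly/aly 6. Probe 2 (chr12:114497090-114497149) was 6.51, 4.76 and 5.83 in wild type against 5.80, 2.39 and -3.82 in NIKaly/aly. BC019425 (chr12:114498348-114498407) was 2.51, -0.068 and 1.72 in wild type against 1.92, -2.06 and -3.64 in NIKaly/aly. In all 3 probes NIKaly/aly 6 was not well above background and NIKaly/aly 2 lay among the wild-type values, while in BC019489 and the gamma polypeptide probe NIKaly/aly 2 was low and NIKaly/aly 4 close to wild type 3.

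To set the rest of the cluster beside mu on the same array, the mu level was subtracted from each of the other 8 tested probes. These include delta, which needs no switch, and the probes beyond epsilon, whose isotype is not named. The remaining difference was -5.61 for AK007918, the only probe whose genotypes did not overlap on this scale, with an exact permutation p of 0.10. That is the smallest p that 3 samples against 3 allow. For BC019489 it was -4.57 with an exact two-sided permutation p of 0.20. Probe 1 beyond epsilon had -4.04 with an exact p of 0.30, and delta had -0.25 with an exact p of 0.80. Over the 8 comparisons the Benjamini-Hochberg adjusted exact p ran from 0.34 to 0.80. With 3 samples against 3 this test cannot reach 0.05 whatever the values, so these are given as sizes only.

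Of the 5 light chain constant probes, 4 were above background on every array, and their genotypes overlapped. The fifth, the kappa constant entry BC106159, was above background on no array. The kappa constant probe that was tested (chr6:70676692-70676751) was 6.67, 3.11 and 4.84 in wild type against 5.33, 4.16 and 2.62 in NIKaly/aly, a difference of -0.84 (SE 0.94). Wild type 1 was highest and NIKaly/aly 6 lowest, and without wild type 1 the difference was 0.060. Probe 1 of lambda constant 2 (chr16:19198651-19198710) was 4.20, 1.40 and 2.21 in wild type against 3.08, 1.70 and 1.76 in NIKaly/aly, a difference of -0.43 (SE 0.71). Its second probe and the joining-constant lambda 3 entry AF138742 differed by -0.43 and -0.44. Each of the 3 lambda differences turned positive, at 0.37 to 0.46, without wild type 1. Of these probes, probe 1 and AF138742 share 42 of 42 aligned bases, so the 3 need not be independent readings. The other 2 tested lambda probes, AY170578 and AY679096, differed by -0.94 and -0.91.

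Kappa variable segments held the widest differences at the light chain loci. U30243 was 1.94, -0.29 and 0.64 in wild type against -1.90, -3.78 and -3.56 in NIKaly/aly. The genotypes did not overlap, and NIKaly/aly 4 and 6 were not well above background. Its difference was -3.84 (SE 0.70, unadjusted p = 0.00056 in limma), and the consecutive-number block gave an adjusted p of 0.015. HQ446714 was 2.38, -0.77 and 0.67 in wild type against -1.57, -3.11 and -2.33 in NIKaly/aly, where only NIKaly/aly 2 was above background. The difference was -3.10 (SE 0.77, unadjusted p = 0.0038 in limma). Its near relative S74547, printed beside it above, was above background in wild type 1 and 5 only. U41438 was 1.66, -1.93 and -0.14 in wild type against -4.56, -4.05 and -2.82 in NIKaly/aly, where no array was above background. It was at least 5.16-fold lower in NIKaly/aly.

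In the other direction, XM_357633 was -3.56, -5.93 and -4.45 in wild type, with no array above background, and -1.63, -2.17 and -1.39 in NIKaly/aly, with all 3 above. It was at least 1.75-fold higher in NIKaly/aly. AF144972 was -2.44, -1.52 and -0.56 in wild type against -1.91, -0.57 and 1.14 in NIKaly/aly, with overlapping genotypes and a difference of 1.06 (SE 0.79). AY351698 differed by 0.85, and U55650 and AB663493 by 0.0042 and 0.013. The last of these spread widely within a genotype. AB663493 was 2.78, -3.17 and 0.26 in wild type against 0.88, 0.85 and -1.83 in NIKaly/aly. U55650 was 2.02, -4.23 and -0.24 in wild type against -0.63, 0.36 and -2.16 in NIKaly/aly. AF468836 and L09033, which lie next to each other, were both low in wild type 3 and NIKaly/aly 2, at -2.96 and -3.68 for the first and -4.52 and -4.51 for the second.

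The 23 tested IgH probes outside the constant cluster, variable or with no region named and many of the large J558 family, had differences of -2.65 to -0.099. AF296427 was 1.21, 0.40 and 0.75 in wild type against 0.29, -0.99 and -0.71 in NIKaly/aly, all 6 well above background. The genotypes did not overlap, with a difference of -1.25 (SE 0.41, unadjusted p = 0.016 in limma). Probe 1 of AF296437 was 1.35, -0.40 and 0.55 in wild type against -0.78, -1.93 and -3.73 in NIKaly/aly, a difference of -2.65 (SE 0.76). NIKaly/aly 6 was not well above background there. The difference was -1.85 without that sample and -1.09 with normexp background correction. Probe 2 of AF296437, well above background on all 6 arrays, had overlapping genotypes. TC1725107 was -1.13, -1.19 and -0.50 in wild type against -1.23, -2.61 and -2.72 in NIKaly/aly, where NIKaly/aly 2 lay just below the wild-type range. AF045501 was 2.46, 1.02 and 0.99 in wild type against 1.33, 0.18 and 0.28 in NIKaly/aly, overlapping, with a difference of -0.89 (SE 0.49). Its relative AF303844 was above background on no array. FM179740, AF296422 and JX120203, whose genotypes overlapped, differed by -1.11, -0.99 and -0.88.

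Along the chromosome, the 23 tested IgH probes outside the constant cluster lay 438 to 2579 kb from the mu probe. Their differences ran from -2.65 to -0.099, and the medians of the nearer 12 and the farther 11 were -0.93 and -0.89. The 23 Igk probes other than the constant probe lay 119 to 2709 kb from it and ran from -3.84 to 2.92. The upper end, XM_357633, rests on wild-type values not well above background. At Igk the nearer 12 had a median of -0.40 and the farther 11 of -1.23. The probes HQ446714, U30243 and U41438 are among the farther ones. These are descriptions of position, without a test.

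Genes of the B lineage that act with these loci were set beside them, each list by its summed level and its counts, with 0 genes past limma's adjusted threshold in any list. An unadjusted p under 0.05 was reached by 1 gene each of the transcription factor, LSK and macrophage lists, and by no other. Of the recombination genes, 12 of 13 were tested, 7 higher and 5 lower, with a median difference of 0.025. Dntt, the polymerase that adds bases at the joints, was 7.16, 7.66 and 6.09 in wild type against 7.35, 7.03 and 6.65 in NIKaly/aly. Rag1, a subunit of the recombinase, was above background on 1 array of each genotype and not tested. Of the class switch and hypermutation genes 7 were tested, 3 higher and 4 lower in NIKaly/aly. Transcription factors of these loci were 6 higher and 10 lower of 16, led by Irf8, a factor of myeloid and B cells, at -1.22 with an unadjusted limma p of 0.010.

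Surrogate light chain and B cell receptor genes were 15 of 15 lower, where 51.5% of all tested probes were, with a median of -0.67. Their summed level was 7.79, 6.45 and 6.45 in wild type against 7.05, 5.89 and 6.42 in NIKaly/aly. Wild type 1 was thus highest again, and the signs without it were not counted for this list. Cd79a, a signalling chain of the receptor, was 3.65, -0.0025 and 1.24 in wild type against 2.12, -2.17 and 0.85 in NIKaly/aly. Vpreb1 and Igll1, the surrogate light chain of precursor B cells, differed by -0.63 and -0.75, with overlapping genotypes. Several of these genes also stand in the B cell marker list. Of the antibody secretion genes 14 of 17 were tested, 6 higher and 8 lower with a median of -0.025. Igj, the joining chain of secreted IgM and IgA, was 4.31, 1.98 and 2.89 in wild type against 2.95, 1.05 and -3.84 in NIKaly/aly, a difference of -3.01 with an unadjusted limma p of 0.083. As in the probes beyond epsilon, NIKaly/aly 2 lay within the wild-type range.

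Some markers of other cell types were seen too, although the sort for lineage-negative cells is meant to remove such cells. Of the tested B cell markers 6 of 6 were lower, where 51.5% of all tested probes were. Their summed level was 6.84, 5.10 and 5.19 in wild type against 5.96, 4.64 and 5.30 in NIKaly/aly. NIKaly/aly 6, which had the lowest median of the immunoglobulin members, stood above wild type 3 and 5 here. Plasma cell markers were 3 of 4 lower, at 2.97 to 4.88 and 1.89 to 3.63. Of this list, Prdm1 and Tnfrsf17 were well above background on no array. Sdc1, the 1 tested marker that was higher, was well above background on all 6 arrays. Its level was 1.11, 1.25 and -0.23 in wild type against 0.59, -0.15 and 1.89 in NIKaly/aly. Neutrophil markers were 7 of 7 lower with a median of -0.16. They summed to 12.78, 10.08 and 11.67 in wild type against 11.97, 10.22 and 11.89 in NIKaly/aly. Erythroblast markers summed to 8.59 in wild type 1 and 7.56 in NIKaly/aly 2 and to 2.87 to 4.26 in the other samples. T cell markers were 5 of 6 lower, at 3.95 to 5.19 and 3.87 to 4.72, and macrophage markers 3 of 3, at 4.85 to 5.59 and 4.17 to 4.41. LSK markers were detected, 10 of 12 on all 6 arrays, with 8 higher and 3 lower. The part of other cells in the immunoglobulin values was not tested, and in bulk RNA fewer cells of a type and less RNA per cell cannot be told apart.

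The arrays differed in depth of signal, which touches the dim members. Before scaling, the 75th percentile stood at 47.0, 225 and 80.2 in wild type against 126, 201 and 50.8 in NIKaly/aly, and the lowest level well above background ran from -3.74 in wild type 3 to -1.58 in NIKaly/aly 6. A level below that on an array has no order there. The bound for U41438, gamma 1 and XM_357633 takes this into account, and the fitted differences do not. All 6 arrays lie on 1 slide and were scanned together, with samples 1 to 4 in 1 row and 5 and 6 in the other. Within samples 1 to 4 alone, 50 of the 61 members were lower in NIKaly/aly, with a median of -0.77.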

How the data were processed

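LSK cells of 3 wild-type and 3 NIKaly/aly samples were hybridised singly to 1-colour Agilent arrays. The deposited spot intensity is the output of Agilent Feature Extraction, whose version is 10.7.3.1 per the file headers. Those headers state that the processed signal had its background subtracted and that surrogates stand in for low values. The deposited flags mark outliers and signal well above background. A table of the series, also deposited by the authors, is a ratio: the processed signal over the array's median, for 100% of values within 0.1%. It served as an alternative.

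Levels here are log2 of the processed signal, scaled to the 75th percentile of the non-control spots of that array. Outlier spots were left out and spots of a probe averaged. No spot was saturated. Probes well above background on at least 3 of 6 arrays were tested (22 lacked a value) with limma 3.58.1 in R 4.3.3, lmFit and eBayes with an intensity trend, genotype as the only term, two-sided, with Benjamini-Hochberg over all tested probes. The script was tested on simulated data. Named members are the tested constant probes and, per locus, the variable or unnamed probes with the smallest p among those not overlapping, the highest mean or the largest range, plus those seen in 1 genotype only. From the other lists up to 4 genes were eligible by p. AF144972, AY351698, the untested constant probes and the printed relatives were added after their values were seen. Members and lists were chosen with earlier results of these data known. Constant or variable was read from the description, and gene names are those of the files. Apart from the subtraction of mu and the summed levels of the lists, levels of different probes were not compared. Precision rests on the number of arrays. Counts over members seen in both genotypes were added after the values were seen. A gene of the class switch list is not reported here.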

Additional observations from a re-analysis of the deposited data

How the results depend on the processing

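Of 652 comparisons of the 34 named probes with an alternative setting, 599 kept direction and side of the threshold, 37 turned direction and 16 passed the threshold that the reported limma fit did not. Median scaling and the authors' deposited table each called 4 members at an adjusted p under 0.05, all lower. They were BC019489, AK007918, the gamma polypeptide probe and U30243. No filter called 6, the same 4 with HQ446714 and U41438. U41438 was well above background in no NIKaly/aly sample. limma's median total degrees of freedom were 8.06 in the reported fit, 37.8 under median scaling and 29.0 with no filter. In the reported limma fit, 1 member was at least 2-fold higher and 11 lower with an unadjusted p under 0.05. The higher one, XM_357633, was not well above background in wild type. By the same rule, no filter gave 2 and 27 of 175, the filter on all 6 arrays 0 and 1 of 16, and normexp 0 higher. Array weights gave 3 and 21, and slide row 1 alone, chosen after seeing the data, 7 lower. The genotypes share no sample number, and whether consecutive numbers pair the samples is not known. Consecutive numbers as a block called 1 member and gave 2 higher and 21 lower. Leaving out single samples gave 0 to 1 called, 1 to 2 higher, 8 to 26 lower and a median of -1.37 to -0.23. Sizes depended on the background correction. Under normexp the median of the members was -0.41, with 9 lower by the same rule. There AK007918, BC019489, U30243 and gamma 1 probe 2 differed by -3.38, -3.08, -1.52 and -0.87, and XM_357633 by 0.52.

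Directions that turned were those of probes with overlapping genotypes, and the cause was not tested. JX120338 (-0.099 as reported) was 0.14 under normexp, 6.0e-05 under median scaling and in the deposited table, 0.23 without samples 1 and 2, 0.84 with array weights and 0.41 in row 1 alone. Kappa variable 4-71 probe 2 (-0.70) was 0.0086 under normexp and 0.22 with array weights. U55650 and AB663493 were -0.13 and -0.072 after quantile normalization. AF468836 and probe 2 of lambda constant 2 were 0.45 and 0.11 without samples 1 and 2 and 1.28 and 0.20 with array weights, where L09033, kappa constant and AY679096 were 1.21, 0.15 and 0.030. Leaving out single samples gave ranges that cross 0: AK134885 -1.25 to 0.11, JX120338 -0.94 to 0.96, AF296435 -1.32 to 0.42, kappa variable 4-71 -1.22 to 0.25 for probe 1 and -1.63 to 0.64 for probe 2, U55650 -1.70 to 1.42, AB663493 -1.55 to 1.43, kappa constant -1.72 to 0.060, AY170578 -2.15 to 0.029, AF138742 -1.05 to 0.38, and lambda constant 2 -1.03 to 0.37 for probe 1 and -1.06 to 0.46 for probe 2. The background of dim arrays limits all values below the lowest signal well above background.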
